A study of Mus musculus with 6 samples.

Results

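The genes described here encode the machinery that carries a new secretory protein into the endoplasmic reticulum (ER), glycosylates it and packs it for export to the Golgi. They form a set of known function matched by gene symbol, and all 48 symbols were found among the 23282 genes of the table. The samples were primary hepatocytes isolated by collagenase perfusion from livers of mice labelled C57BL6/N (wild-type mice are given as C57BL/6NJ in the study's methods), plated for 3 h and then either left untreated (control, 3 samples) or given recombinant IL-1β protein for 24 h (IL-1β, 3 samples). Messenger RNA was read from its 3′ end by the QuantSeq method. The study states a dose for recombinant cytokines on primary hepatocytes, but not for these libraries by name, and the age and number of the mice for them are not given in the sources used here. These sources do not say whether samples of a group came from separate animals, so the p-values measure only the spread between these samples, which may be technical.

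Hepatocytes secrete most plasma proteins, and nearly all of these enter the ER through the Sec61 channel. A signal sequence is bound by the signal recognition particle, the chain is threaded through the channel, the signal is cut off by signal peptidase, and glycans are added by oligosaccharyltransferase. Cargo then leaves in vesicles coated by COPII, some of it held by cargo receptors, while KDEL receptors return escaped ER residents. Genes of this route are known targets of the unfolded protein response, through the factors XBP1 and ATF6, and of membrane-bound factors of the CREB3 family.

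Total counts per library were 9538741 to 11105408, of which the 48 genes took 0.517% to 0.544%. The ribosomal RNA precursor Rn45s took 11.7% to 14.2%. All 48 genes had at least 36 counts in each library and passed the filter on low counts. Levels are given as CPM, the reads of a gene per 1000000 reads of its library after TMM scaling, and a log2 fold change is IL-1β over control.

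Few genes of this machinery passed the test, and the measured differences were small. By edgeR's quasi-likelihood test, adjusted over all 11657 genes tested, 3 of the 48 genes had an adjusted p below 0.05 (6.25%), against 13.4% of all genes tested. The cargo receptor Surf4 and the receptor cofactor Mcfd2 rose, and the COPII coat gene Sec23a fell. Thus 2 of 48 were higher, against 6.97% of all genes, and 1 was lower, against 6.44%. An unadjusted p below 0.05 by the same test was found for 6 of the 48 and for 2746 of all 11657 genes. DESeq2 and limma also called 2 higher and 1 lower each. With total counts alone in place of TMM, 1 was higher and 3 were lower, and over the whole table the share of calls that were higher went from 52.0% to 39.6%. IL-1β and control samples were fully separated for 6 genes that were higher and 4 that were lower after IL-1β, while 14% and 14.2% of all genes tested showed such a separation.

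The median log2 fold change was 0.012 over the 48 genes and -0.0018 over all genes tested. The interquartile range was 0.130 and 0.326. A log2 fold change under 0.15 in size was found in 40 of the 48 (83.3%) and in 47.3% of all genes tested. The 95% interval of the fold change lay within 1.5-fold in either direction for 44 of the 48 and for 58.5% of all genes tested, the exceptions among the 48 being Spcs3, Sec23a, Sec24d and Kdelr3. Such spreads and intervals also depend on how many counts a gene has, and the 48 were not set against genes of like level. Added together, the 48 genes came to 5233 to 5247 CPM in the controls and 5259 to 5430 CPM after IL-1β. The direction of this sum depended on the scaling. As a share of total counts, without TMM, they took 0.527% to 0.544% in the controls and 0.517% to 0.529% after IL-1β, with overlap.

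**Figure D1:**
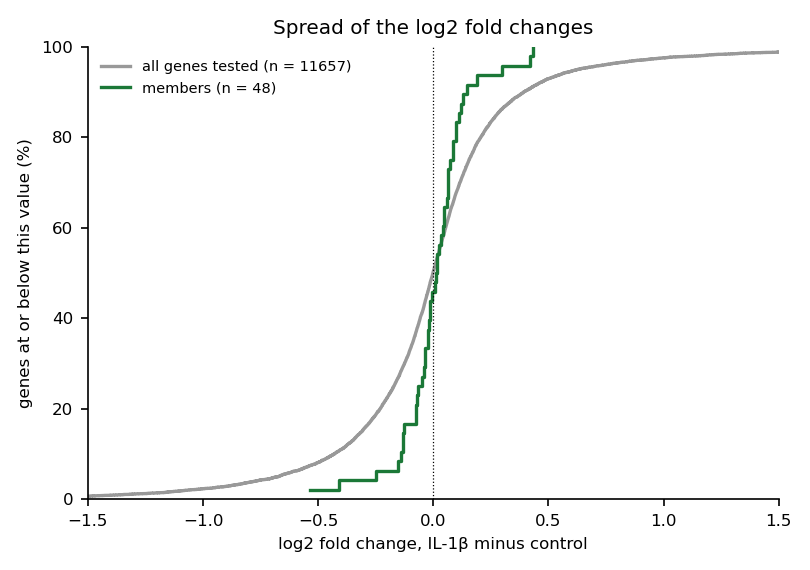
Cumulative share (percent) of genes against their log2 fold change, IL-1β minus control, for the 48 genes of ER entry and export and for all 11657 genes tested. The curve of the 48 genes is the steeper one, with an interquartile range of 0.130 against 0.326. Levels were not matched between the curves.

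**Figure D2:**
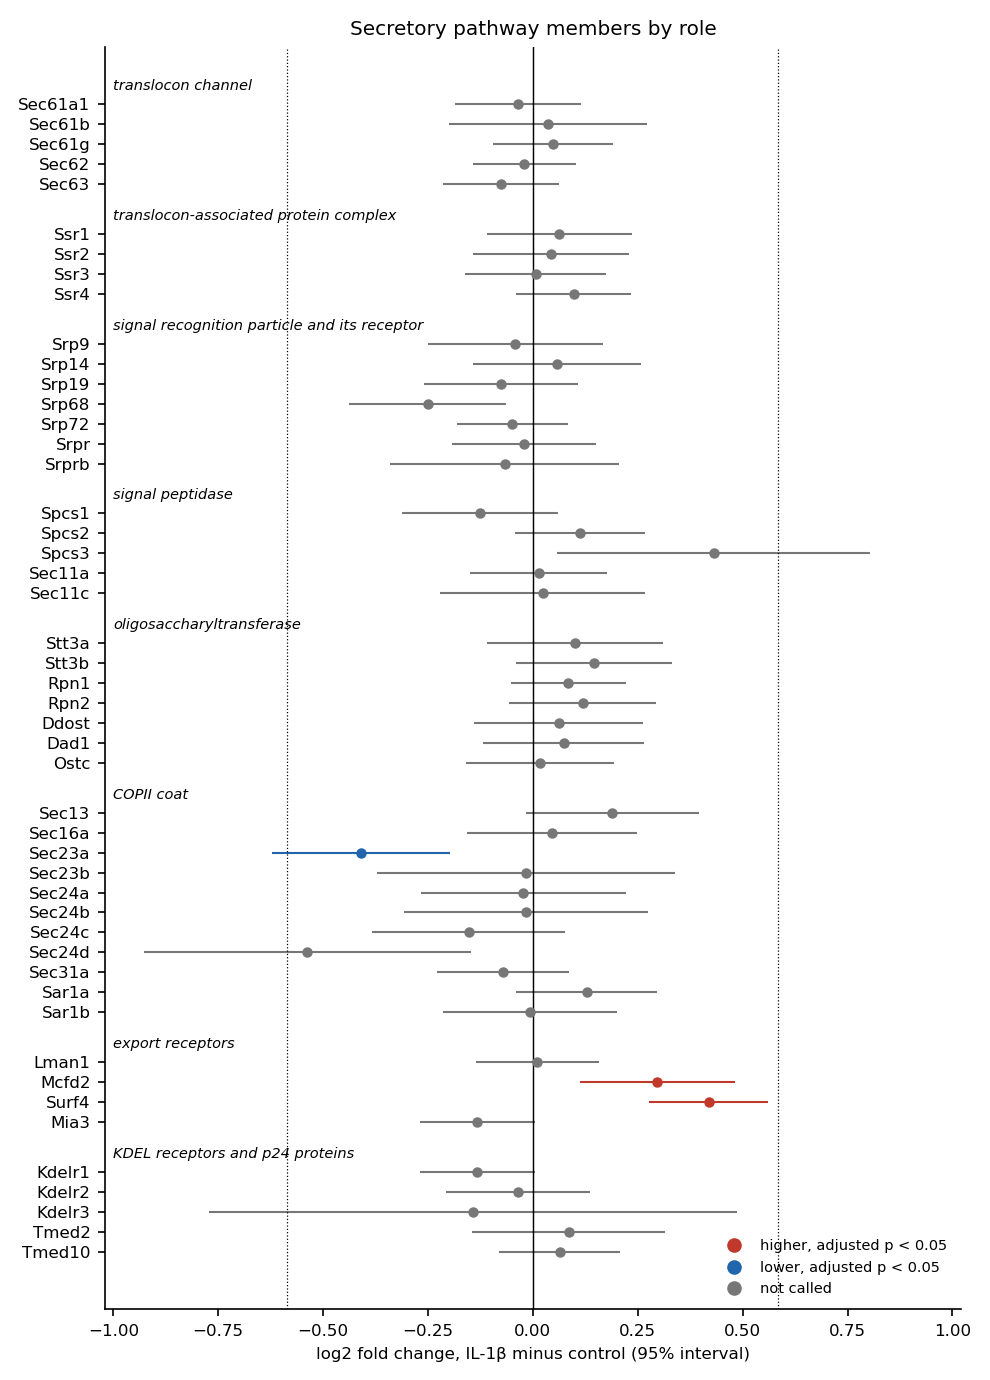
Log2 fold change (IL-1β minus control) of each of the 48 genes, with its 95% interval from edgeR, grouped by role. Surf4 and Mcfd2 were higher and Sec23a was lower at an adjusted p below 0.05. Dotted lines mark a 1.5-fold change in either direction.

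Delivery to the membrane depends on the signal recognition particle and its receptor. Here 0 of the 7 genes were called by edgeR, DESeq2 or limma, and 1 had an unadjusted p below 0.05. That gene was Srp68, whose product binds the particle's RNA together with SRP72. Its level was 67.6, 64.3 and 58.7 CPM in the controls and 54.2, 53.6 and 52.5 CPM after IL-1β. Every IL-1β sample lay below every control. The log2 fold change was -0.25 with a standard error of 0.0907 and an adjusted p of 0.0726 by edgeR, and the adjusted p was 0.0402 with upper-quartile scaling, 0.0242 with total counts or 0.0486 without control replicate 3. Other alternatives gave an adjusted p of 0.0718 to 0.135 with all samples, and of up to 0.198 with a sample left out. Its partner Srp72 was at 266 ± 6.43 CPM in the controls and 257 ± 5.81 CPM after IL-1β (SD, n = 3 each), a log2 fold change of -0.049. Srp9 and Srp14, for the domain that slows translation, and Srp19, for an assembly protein, had log2 fold changes of -0.042, 0.058 and -0.076. The receptor genes Srpr and Srprb were at -0.021 and -0.068 on the same scale. Over 39 bases, the 3′ end of Srpr lies under Fam118b on the opposite strand, itself at a log2 change of 0.10 (adjusted p = 0.669).

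In the channel, Sec61a1 encodes the pore, Sec61b and Sec61g its small subunits, and Sec62 and Sec63 partners that serve post-translational import. Here 0 of the 5 genes were called by edgeR, DESeq2 or limma, and 0 had an unadjusted p below 0.05. Sec62 was at 571, 557 and 565 CPM in the controls and 544, 566 and 558 CPM after IL-1β. Its groups overlapped, and the 95% interval of its fold change was 0.905 to 1.07. Sec61a1 was at 337, 386 and 386 CPM in the controls and 330.4, 358 and 393 CPM after IL-1β, also with overlap and with an interval of 0.880 to 1.08. Sec61g did not overlap, at 137 to 139 CPM in the controls and 139 to 145 CPM after IL-1β, yet its log2 fold change was 0.048 (adjusted p = 0.759) and turned to -0.0061 with total counts. Sec61b and Sec63 had log2 fold changes of 0.035 and -0.077. An antisense gene, Gm44170, is annotated across 671 bases at the 3′ end of Sec61a1 and was not analysed here.

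The translocon-associated protein complex sits beside the channel and helps some signal sequences to enter. For its subunits, 0 of the 4 genes were called by edgeR, DESeq2 or limma, and 0 had an unadjusted p below 0.05. Ssr1, Ssr2, Ssr3 and Ssr4 had log2 fold changes of 0.063, 0.044, 0.0068 and 0.10. All 4 were above 0 with TMM, but Ssr3 was at -0.022 with upper-quartile scaling, and with total counts Ssr2 was at -0.0097 and Ssr3 at -0.046. Summed, the 4 genes came to 496 to 519 CPM in the controls and 508 to 557 CPM after IL-1β.

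Signal peptidase joins a catalytic subunit, SEC11A or SEC11C, to the accessory subunits SPCS1, SPCS2 and SPCS3. Here 0 of the 5 genes were called by edgeR, DESeq2 or limma, and 1, Spcs3, had an unadjusted p below 0.05. Spcs3 was at 21.6, 11.01 and 14.2 CPM in the controls and 22.6, 19.4 and 21.2 CPM after IL-1β. Control replicate 1 stood with the IL-1β samples, and the other controls lay below all of them. The log2 fold change was 0.43 with a standard error of 0.181 and an adjusted p of 0.132 by edgeR, with a 95% interval of the fold change of 1.04 to 1.75. Without control replicate 1 the log2 fold change was 0.74 (adjusted p = 0.00109), and without a filter on low counts the adjusted p was 0.0482. Blocking by replicate number gave an adjusted p of 0.0410 for Spcs3, and limma gave 0.0903. Under the remaining alternatives with all samples the adjusted p was 0.131 to 0.460. With a sample left out, the log2 fold change of Spcs3 was as low as 0.23 and the adjusted p as high as 0.501. Spcs1 and Spcs2 had log2 fold changes of -0.13 and 0.11 (adjusted p of 0.449 and 0.406). The catalytic genes Sec11a and Sec11c were at 0.014 and 0.023, both of which were below 0 under upper-quartile and total-count scaling.

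Oligosaccharyltransferase moves a preassembled glycan onto asparagine residues of the chain. STT3A and STT3B are its alternative catalytic subunits, and RPN1, RPN2, DDOST, DAD1 and OSTC are further subunits. Here 0 of the 7 genes were called by edgeR, DESeq2 or limma, and 0 had an unadjusted p below 0.05. All 7 had log2 fold changes above 0 with TMM, from 0.018 for Ostc to 0.15 for Stt3b, but Ostc was at -0.011 with upper-quartile scaling and -0.037 with total counts. Stt3b was at 73.4, 63.2 and 78.6 CPM in the controls and 76.5, 78.7 and 82.6 CPM after IL-1β, control replicate 3 lying among the IL-1β samples and the other controls below them. Rpn1 was at 223, 240 and 246 CPM in the controls and 246, 254 and 252 CPM after IL-1β, the lowest IL-1β sample being just above the highest control (log2 fold change 0.084, adjusted p = 0.504). Stt3a, Rpn2 and Ddost had log2 fold changes of 0.10, 0.12 and 0.062. Dad1 was at 161, 123 and 117 CPM in the controls and 143, 134 and 144 CPM after IL-1β. Control replicate 1 was above every other library for this gene. The log2 fold change of Dad1 was 0.074 (adjusted p = 0.713), and 0.23 without that replicate (adjusted p = 0.0403). Over all samples left out singly, the adjusted p of Dad1 ranged from 0.0403 to 0.953.

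The COPII coat has an inner layer of SAR1, SEC23 and SEC24 and an outer cage of SEC13 and SEC31, on sites organised by SEC16A. Of its 11 genes, 1 was lower and 0 were higher by edgeR, and 2 had an unadjusted p below 0.05. DESeq2 and limma called 1 gene each. Sec23a (chromosome 12, 58958384 to 59012017 on GRCm38, minus strand) encodes the inner coat protein that activates the SAR1 GTPase. It was at 44.8, 51.5 and 44.9 CPM in the controls and 36.9, 34.8 and 34.8 CPM after IL-1β. All IL-1β samples lay below all controls. Sec23a was 24.7% lower, a log2 change of -0.41 ± 0.103 (SE; edgeR adjusted p = 0.00696). Without control replicate 2 the value was -0.34 with an adjusted p of 0.0619, and an unmoderated test on log2(CPM + 1) gave an adjusted p of 0.0739. The antisense gene Gm17529, not analysed here, is annotated across the 3′ end of Sec23a, and the sources used here do not say whether reads were counted by strand.

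Sec24d encodes a cargo-binding partner of SEC23. It was at 15.2, 12.9 and 15.9 CPM in the controls and 8.23, 8.93 and 13.01 CPM after IL-1β. IL-1β replicate 3 lay just above control replicate 2, and the other IL-1β samples lay below all controls. The log2 change was -0.54 ± 0.189 (SE; edgeR adjusted p = 0.0622), the lowest of the 48, with a 95% interval of the fold change of 0.526 to 0.903. The adjusted p was 0.0472 with upper-quartile scaling, 0.0319 with total counts, 0.0359 without a filter and 0.0173 without IL-1β replicate 3, but 0.266 without IL-1β replicate 1. The other cargo adaptor genes Sec24a, Sec24b and Sec24c had log2 fold changes of -0.023, -0.016 and -0.15. Sec23b, the paralog of Sec23a, was at 15.03 to 22.02 CPM in the controls and 14.2 to 23.2 CPM after IL-1β, with a log2 fold change of -0.016.

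Among the remaining coat genes, Sec13 was at 40.8, 37.1 and 41.7 CPM in the controls and 46.6, 43.5 and 46.1 CPM after IL-1β, without overlap (log2 fold change 0.19, adjusted p = 0.265). Sar1a was at 75.0 to 78.6 CPM in the controls and 79.9 to 87.9 CPM after IL-1β, also without overlap (log2 fold change 0.13, adjusted p = 0.379). Neither gene passed the test. Sar1b, Sec31a and Sec16a had log2 fold changes of -0.0070, -0.071 and 0.045. The 3′ part of Sec24c lies under the antisense gene 6230400D17Rik, which was at 1.89 ± 0.866 CPM in the controls and 1.80 ± 0.816 CPM after IL-1β (SD, n = 3 each).

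Paralogs were set against each other within each library, where scaling has no part, for 9 pairs. The log2 ratio of Sec23a to Sec23b was 1.36 ± 0.19 in the controls and 0.98 ± 0.39 after IL-1β (SD, n = 3 each), a difference of -0.37 (two-sided exact permutation p = 0.3, 0.9 adjusted over the pairs). The log2 ratio of Sec24d to Sec24c was -1.35 ± 0.30 in the controls and -1.76 ± 0.30 after IL-1β (SD, n = 3 each), a difference of -0.42 (exact permutation p = 0.2, 0.9 adjusted). The samples of the groups overlapped in all 9 ratios. For the catalytic pair Stt3a to Stt3b the log2 ratio was -0.55 ± 0.10 in the controls and -0.61 ± 0.10 after IL-1β (SD, n = 3 each), and for Sar1a to Sar1b it was 0.47 ± 0.23 in the controls and 0.60 ± 0.069 after IL-1β (SD, n = 3 each). The differences of the pairs Sec24a to Sec24b, Sec11c to Sec11a, Kdelr2 to Kdelr1, Kdelr3 to Kdelr1 and Kdelr3 to Kdelr2 lay between -0.091 and 0.10. With 3 samples against 3 this test cannot give a p below 0.1.

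Cargo receptors held the remaining calls. Of the 4 genes, 2 were higher and 0 lower by edgeR, against 6.97% and 6.44% of all genes tested. DESeq2 and limma called 2 each. A list of 4 genes is too short for its share to be compared with these. Surf4 (chromosome 2, 26920041 to 26933511 on GRCm38, minus strand) encodes a receptor known for the export of lipoproteins. It was at 231, 227 and 209 CPM in the controls and 308, 278 and 306 CPM after IL-1β. The lowest IL-1β sample stood clear of the highest control. Surf4 rose 1.34-fold, with a 95% interval of 1.21 to 1.48 and a log2 change of 0.42 ± 0.0686 (SE; edgeR adjusted p = 7.39e-05). When samples were left out singly, the log2 change of Surf4 was 0.37 to 0.47 and the adjusted p stayed below 0.05, while the unmoderated test gave 0.0574.

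The last 143 bases of Surf4 are shared with the 3′ end of Surf2 on the opposite strand. Surf2 was at 103, 93.6 and 86.7 CPM in the controls and 130, 119.5 and 126 CPM after IL-1β. Its groups did not overlap either, and its log2 change was 0.41 ± 0.0799 (SE; edgeR adjusted p = 6.47e-04). Reads of the shared stretch cannot be told apart if they were counted without regard to strand, and their part in either value was not tested.

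Mcfd2 (chromosome 17, 87254443 to 87265947 on GRCm38, minus strand) encodes the calcium-binding cofactor of the lectin LMAN1, with which it carries coagulation factors V and VIII. It was at 53.9, 62.5 and 61.2 CPM in the controls and 73.4, 75.0 and 69.6 CPM after IL-1β. The groups did not overlap. Mcfd2 rose 1.23-fold, with a 95% interval of 1.08 to 1.40 and a log2 change of 0.30 ± 0.0893 (SE; edgeR adjusted p = 0.0264). The call was lost without control replicate 1 (adjusted p = 0.0977), IL-1β replicate 1 (0.0809) or IL-1β replicate 2 (0.107), with total counts (0.0822) and in the unmoderated test (0.135).

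Lman1 itself was at 144, 154 and 140 CPM in the controls and 144, 145 and 151 CPM after IL-1β. These groups overlapped, and the 95% interval of the fold change was 0.910 to 1.12. Within a library, the log2 ratio of Mcfd2 to Lman1 was -1.30 ± 0.11 in the controls and -1.01 ± 0.089 after IL-1β (SD, n = 3 each), a ratio chosen after the values were seen and given without a test. Mia3 encodes TANGO1, which helps to export bulky cargo. It was at 206, 209 and 204 CPM in the controls and 194, 188 and 183 CPM after IL-1β, without overlap, and its log2 change was -0.13 ± 0.0665 (SE; adjusted p = 0.231).

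**Figure D3:**
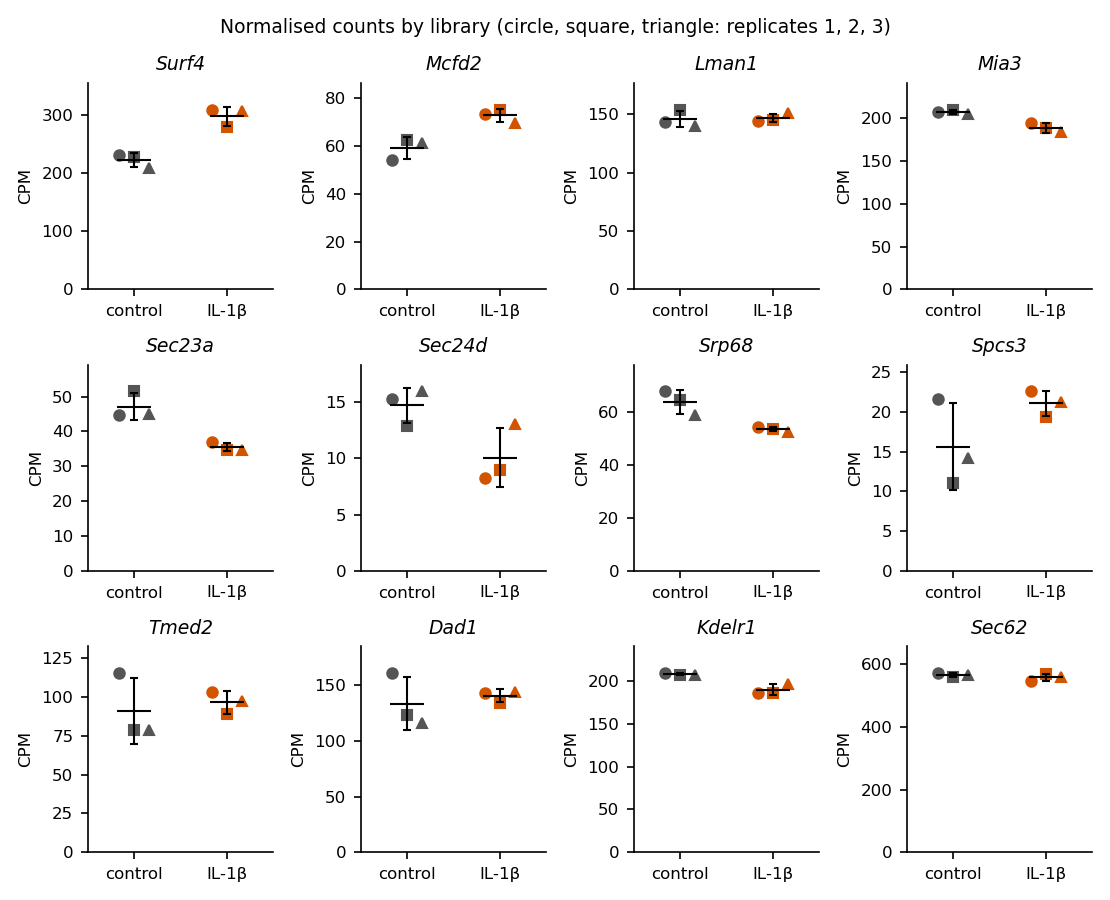
CPM in each library for 12 of the genes, 1 symbol per replicate, with the mean and SD of each group (n = 3), on axes that start at 0. Surf4 and Mcfd2 were higher and Sec23a lower in every IL-1β sample, while control replicate 1 stood above the other controls in Spcs3, Tmed2 and Dad1. The genes shown were chosen after their values were seen.

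Retrieval and sorting made up the last group, in which 0 of the 5 genes were called by edgeR, DESeq2 or limma and 0 had an unadjusted p below 0.05. Kdelr1 was at 209, 207 and 207 CPM in the controls and 186, 186 and 197 CPM after IL-1β. Its groups did not overlap, and its log2 change was -0.13 ± 0.0665 (SE; adjusted p = 0.235). Kdelr2 had a log2 fold change of -0.035. Kdelr3 was at 5.64, 3.31 and 5.84 CPM in the controls and 5.77, 3.46 and 4.18 CPM after IL-1β, and its log2 fold change of -0.14 carried a 95% interval of the fold change of 0.586 to 1.40. This gene had the fewest counts of the 48. Its annotated 3′ end overlaps that of Ddx17 by 4 bases. Tmed2, for a p24 protein of early secretory vesicles, was at 115, 78.3 and 78.9 CPM in the controls and 103, 88.7 and 97.4 CPM after IL-1β, control replicate 1 again standing highest. Its log2 fold change was 0.085 (adjusted p = 0.724), and 0.29 without that replicate (adjusted p = 0.0177). Over all samples left out singly, the adjusted p of Tmed2 ranged from 0.0177 to 0.982. The p24 gene Tmed10 had a log2 fold change of 0.064. Leaving out control replicate 1 gave 4 genes higher in place of 2, namely Surf4, Spcs3, Dad1 and Tmed2, and 1 lower.

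Promoter windows of 300 bases, from 250 before the annotated start to 50 after it, were available from RefSeq (GRCm38.p6) for 38 of the 48 genes, and 41 windows were searched on both strands. The motifs were chosen after the expression values had been seen. The unfolded protein response element core TGACGTGG, known to bind XBP1 and related bZIP factors, was found for 3 of the 38 genes, Sec23a, Sec24d and Kdelr3. It was in 0.676% of all 32851 windows and in 3 of the 41 searched for these genes. These windows are shown because they include the gene that fell and the gene with the lowest fold change, with the element in capitals. They are chr12:59011968-59012267 (minus strand) for Sec23a, chr3:123267246-123267545 (plus strand) for Sec24d and chr15:79516158-79516457 (plus strand) for Kdelr3, where the capitals give the element of the opposite strand.
Sec23a: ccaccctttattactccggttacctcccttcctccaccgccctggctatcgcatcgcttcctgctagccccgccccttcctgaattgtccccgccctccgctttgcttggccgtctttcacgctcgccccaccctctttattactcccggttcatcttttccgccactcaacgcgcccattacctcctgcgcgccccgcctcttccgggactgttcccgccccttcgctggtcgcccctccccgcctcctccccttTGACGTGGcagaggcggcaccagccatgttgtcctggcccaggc
Sec24d: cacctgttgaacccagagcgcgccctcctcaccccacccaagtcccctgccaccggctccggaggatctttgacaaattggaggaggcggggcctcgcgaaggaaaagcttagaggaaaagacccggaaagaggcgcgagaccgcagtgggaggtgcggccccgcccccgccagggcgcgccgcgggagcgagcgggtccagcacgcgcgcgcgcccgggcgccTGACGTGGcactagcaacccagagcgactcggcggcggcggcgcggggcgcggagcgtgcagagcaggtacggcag
Kdelr3: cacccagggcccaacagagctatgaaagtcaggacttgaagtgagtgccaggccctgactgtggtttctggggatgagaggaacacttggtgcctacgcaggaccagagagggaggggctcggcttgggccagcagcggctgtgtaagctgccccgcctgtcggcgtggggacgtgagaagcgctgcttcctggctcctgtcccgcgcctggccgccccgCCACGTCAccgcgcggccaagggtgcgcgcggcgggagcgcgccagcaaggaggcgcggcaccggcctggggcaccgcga

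The element began 6 bases after the annotated start of Sec23a, 26 bases before that of Sec24d and 30 bases before that of Kdelr3. Over all genes listed, 90 tested genes had the element in a window, with a median log2 fold change of -0.030. Of these 90, 8 were higher and 6 lower at an adjusted p below 0.05, while 6.97% and 6.44% of all genes tested were higher and lower. No window of the 38 genes held the cAMP response element TGACGTCA (1.79% of all windows), the ER stress response element (CCAAT, any 9 bases, then CCACG; 0.119%) or its shorter form (ATTGG, any base, then CCACG; 0.0365%). The same held for an NF-κB site (GGGA, any 2 bases, then TTCC; 1.47%) and an HNF4 site (CAAAGTCCA; 0.475%). The half-site CCACG, part of both ER stress response elements and, on the other strand, of TGACGTGG, occurred for 26 of the 38 genes. It was in 27 of their 41 windows and in 32.8% of all windows. A match describes letters and was not tested as a binding site.

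The windows of the genes that rose are given for comparison, chr2:26933462-26933761 for Surf4 and chr17:87265898-87266197 for Mcfd2, both on the minus strand. Neither holds TGACGTGG. Capitals mark the CCACG half-site on either strand, present once for Surf4 and in 3 places for Mcfd2.
Surf4: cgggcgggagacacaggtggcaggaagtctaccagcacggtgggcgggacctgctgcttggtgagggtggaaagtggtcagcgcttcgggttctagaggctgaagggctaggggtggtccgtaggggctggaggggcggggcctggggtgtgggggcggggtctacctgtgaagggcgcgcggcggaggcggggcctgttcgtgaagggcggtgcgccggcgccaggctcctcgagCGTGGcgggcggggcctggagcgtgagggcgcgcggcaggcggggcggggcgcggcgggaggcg
Mcfd2: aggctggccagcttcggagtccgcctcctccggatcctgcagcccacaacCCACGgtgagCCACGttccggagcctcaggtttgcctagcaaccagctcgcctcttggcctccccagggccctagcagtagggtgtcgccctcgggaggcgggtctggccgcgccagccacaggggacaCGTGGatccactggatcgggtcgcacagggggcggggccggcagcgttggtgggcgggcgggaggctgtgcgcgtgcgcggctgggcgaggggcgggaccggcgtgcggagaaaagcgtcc

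Other genes of the same route were taken from lists of known function. Of 28 further membrane insertion genes tested, 0 were higher and 2 lower by edgeR, with a median log2 fold change of 0.010. Tmco1, a component of a translocon-associated insertion complex, fell by 0.27 on the log2 scale (adjusted p = 0.0171), and Tram1, a partner of the channel, fell by 0.25 (adjusted p = 0.0255). Without control replicate 2, IL-1β replicate 1 or IL-1β replicate 3, 0 of this list were called, and without IL-1β replicate 2 it was 1. Of 4 further oligosaccharyltransferase subunits, 0 were called by edgeR, DESeq2 or limma and 1 had an unadjusted p below 0.05, namely Magt1, for an oxidoreductase subunit, at a log2 fold change of 0.20 (adjusted p = 0.0779). Of 23 genes for the lipid-linked glycan donor, 1 was higher and 0 lower. Nus1, for a subunit of the enzyme that starts dolichol synthesis, was at 94.7, 102 and 111 CPM in the controls and 139.7, 132 and 132 CPM after IL-1β and rose by a log2 change of 0.39 (adjusted p = 8.08e-04). Of 14 COPI genes, which serve traffic back to the ER, 0 were called by edgeR, DESeq2 or limma and 1 had an unadjusted p below 0.05, with a median log2 fold change of -0.082.

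Of 31 other genes of ER exit and Golgi arrival, 0 were higher and 1 was lower by edgeR. Sec16b, the paralog of Sec16a and likewise an organiser of ER exit sites, was at 6.39, 7.43 and 6.35 CPM in the controls and 1.39, 1.54 and 0.651 CPM after IL-1β. All IL-1β samples lay far below the controls, and Sec16b fell, with a log2 change of -2.49 ± 0.354 (SE; adjusted p = 1.07e-05). Sec16a, in contrast, was at 44.4 to 49.1 CPM in the controls and 45.5 to 51.1 CPM after IL-1β. Preb, for the exchange factor that loads SAR1, was at a log2 change of -0.29 (adjusted p = 0.0609). With total counts 3 genes of this list were called, and without control replicate 1 it was 4. With a filter of at least 10 counts in every sample it was 0. Sec16b, with 13, 16 and 7 counts after IL-1β, did not pass that filter and so was not tested there.

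Factors known to act on secretory genes were measured in the same libraries as mRNA only, so the activity of their proteins was not tested. Of 10 genes, 1 was higher and 1 lower by edgeR, against 6.97% and 6.44% of all genes tested. Xbp1 was at 92.5, 87.6 and 104 CPM in the controls and 109.6, 121 and 129 CPM after IL-1β, without overlap, and rose by a log2 change of 0.34 (adjusted p = 0.00610). Creb3l3, for a membrane-bound factor of the liver, was at 40.2, 42.2 and 27.5 CPM in the controls and 5.13, 2.59 and 4.09 CPM after IL-1β and fell by 3.23 on the log2 scale (adjusted p = 6.11e-12). Creb3l2, whose product is known to act on Sec23a, was at 5.54, 4.57 and 5.24 CPM in the controls and 3.31, 2.59 and 2.88 CPM after IL-1β. Its groups did not overlap, but its log2 change of -0.80 did not pass the test (adjusted p = 0.0859). Atf6, Atf6b and Mbtps2 had log2 fold changes of 0.21, 0.15 and 0.26, with adjusted p of 0.136, 0.357 and 0.412. Ern1, Creb3, Creb3l1 and Mbtps1 were at -0.18, 0.016, 0.23 and -0.060. Without IL-1β replicate 3, 1 of the 10 was called.

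Of 8 cargo genes of these receptors analysed here, which are not all of their known cargo, 6 were lower, with a median log2 fold change of -0.38. Over all genes tested, 6.44% were lower. The fall was not particular to this list, as 6 of the 8 hepatocyte markers described below were also lower, with a median of -0.34. F5, for coagulation factor V, was at 240.1, 299 and 279.5 CPM in the controls and 185, 185 and 192 CPM after IL-1β and fell by 0.54 on the log2 scale (adjusted p = 7.55e-06). F8, for factor VIII, which in liver is made chiefly by endothelial cells, was at 9.30, 12.7 and 12.2 CPM in the controls and 6.20, 8.65 and 6.32 CPM after IL-1β and fell by 0.69 (adjusted p = 0.0288). Both are cargo of LMAN1 and MCFD2. Apob, the structural protein of lipoproteins, was at 543, 556 and 489.9 CPM in the controls and 399, 370.3 and 331 CPM after IL-1β and fell by 0.53 (adjusted p = 5.34e-06). The 5 Serpina1 paralogs had log2 fold changes from -0.45 to -0.12, of which 3 passed the test, but near-identical copies may share reads. With the unmoderated test 1 of the 8 genes was called.

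**Figure D4:**
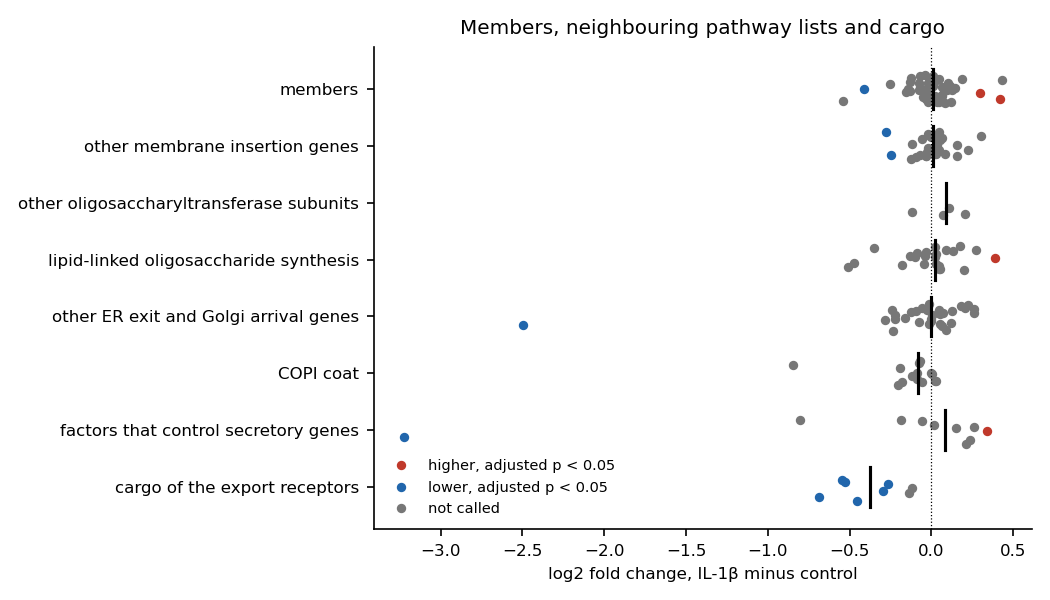
Log2 fold change (IL-1β minus control) of each tested gene among the 48 and in the neighbouring lists, 1 point per gene, with calls at an adjusted p below 0.05 in colour and a line at each median. The 8 cargo genes shown, not all known cargo, lie below 0, with a median of -0.38, and Creb3l3 and Sec16b stand far to the left.

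Since every cell type holds this machinery, markers of the cells a liver preparation can contain were summed. Hepatocyte markers came to 35070 to 36410 CPM in the controls and 28980 to 31270 CPM after IL-1β, with 6 of 8 lower. The smallest adjusted p were those of Gc, Ttr, Apoe and Tat, at log2 changes of -0.58, -0.35, -0.26 and -1.71. Cps1, named after its values were seen, is a defining hepatocyte gene and was at only 1.79 to 3.22 CPM in the controls. Macrophage markers came to 248 to 279.8 CPM and 254 to 287 CPM in the 2 groups, with 0 of 11 called by edgeR, DESeq2 or limma and 3 at an unadjusted p below 0.05. These were Cd74, Marco and C1qa, at log2 changes of 0.56, 0.67 and 0.75 (adjusted p of 0.0658, 0.141 and 0.211), and 8 of the 11 were above 0, with a median of 0.31. Most of the sum came from Cd68, at 192 ± 17.4 CPM in the controls and 184 ± 12.3 CPM after IL-1β (SD, n = 3 each). The Kupffer cell markers Clec4f and Vsig4 had at most 27 and 7 counts in any library, too few to be tested. Cd5l, of the same list, was at 19.9 ± 0.627 CPM in the controls and 17.2 ± 1.36 CPM after IL-1β (SD, n = 3 each).

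Endothelial markers came to 68.6 to 75.3 CPM and 66.4 to 68.2 CPM, with Lyve1 higher and Clec4g and Kdr lower among 7. The log2 changes of Lyve1, Clec4g and Kdr were 0.45, -2.87 and -1.49. Of the 7 genes, 5 were below 0 and 2 above, with a median of -0.50, which the sums do not show. Stellate cell markers came to 19.3 to 23.5 CPM and 21.8 to 27.5 CPM, with 0 of 2 tested called by edgeR, DESeq2 or limma and 0 at an unadjusted p below 0.05. Cholangiocyte markers came to 316 to 329 CPM and 236 to 239.6 CPM, nearly all of it from Spp1 and Sox9, the 2 tested. Spp1 fell by 1.20 on the log2 scale by edgeR (adjusted p = 4.36e-12). Sox9 had 0.21 (adjusted p = 0.0519), and DESeq2 and limma called both genes. The defining markers Krt7, Krt19, Epcam and Cftr had at most 6 counts in any library. Of the neutrophil markers, S100a8 had 0 counts in the controls and 2.03 to 4.74 CPM after IL-1β, and S100a9, Mpo, Elane and Retnlg were at 0 in all libraries. The B cell genes Cd79a and Ms4a1 and the T and NK cell genes Cd3e, Cd3g, Gzma and Ncr1 were at 0 as well. Fewer cells of a type and less RNA per cell cannot be told apart in bulk samples, and the part of other cells in the values above was not tested.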

How the data were processed

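RNA from 3 control and 3 IL-1β samples was sequenced as single-end reads of 75 bases, and groups were taken from the sample titles. The series' design text counts 2 samples a group but lists 3, and 3 are labelled and in the table. The authors deposited raw read counts per gene after alignment with Bowtie2, and the submitters' notes name the build mm10 or GRCm38. The counting tool, its use of strand and its handling of reads that match several genes are not given in the sources used here. The authors also deposited log2 normalized values with group means (TMM and CPM by edgeR, per the labels), a fold change as a linear ratio, and a p-value per gene without adjustment, none of which was used for a test.

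These counts were fitted by edgeR 4.0.16 in R 4.3.3 (default filter, TMM, quasi-likelihood test, Benjamini-Hochberg adjustment over 11657 genes), and the fit was tested on simulated data. DESeq2 1.42.0, limma 3.58.1 on log2(CPM + 1), other scalings and filters, an unmoderated test, the replicate number as a block and leaving out each sample were the alternatives. Ratios of paralogs used count + 0.5, with an exact permutation test in Python 3.11.15. At this depth 3 counts correspond to 0.269 to 0.321 CPM, for counting error only. No pair of replicates agreed within counting error (chi-square per degree of freedom 4.14 to 9.94). Promoter windows came from RefSeq and overlapping genes from GENCODE M21. Ly6g, Ighm and Igkc were not analysed here.

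The 48 genes, the lists and the tests were chosen with earlier results of these data known. All 48 genes are named. From each wider list and marker list at most 4 tested genes with the smallest adjusted p are named, besides markers near 0 and Cps1 and Cd68, named after their values were seen. From the factor and cargo lists every gene is named, with the Serpina1 paralogs as a range, except a further cargo gene that is not reported here.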

Additional observations from a re-analysis of the deposited data

How the results depend on the processing

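Of the 48 genes, 2 were higher and 1 was lower. The number higher became 1 with total counts and 0 with the unmoderated test or when calls also had to exceed a 1.5-fold change, and it was 1 to 4 with each sample left out. The number lower became 3 with upper-quartile scaling or total counts, 2 without a filter and 0 with the unmoderated test or the added fold change, and it was 0 to 2 with each sample left out. Among all genes tested, 1563 calls became 547 with the unmoderated test and 769 with the added fold change, and 1131 to 1596 with each sample left out. The median log2 fold change of the 48 was -0.041 with total counts, under which the median of all genes was -0.055, and -0.013 to 0.037 with each sample left out. For these changes the cause was not tested.

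Changes of sign were found in genes near 0. With upper-quartile scaling the log2 fold changes were Ssr3 -0.022, Sec11a -0.014, Sec11c -0.0052, Ostc -0.011 and Lman1 -0.019, and with total counts Sec61b -0.020, Sec61g -0.0061, Ssr2 -0.0097, Ssr3 -0.046, Sec11a -0.039, Sec11c -0.031, Ostc -0.037, Sec16a -0.0099 and Lman1 -0.043. When samples were left out singly, the ranges that crossed 0 were Sec61a1 -0.10 to 0.030, Sec61b -0.10 to 0.14, Sec62 -0.030 to 0.0012, Ssr2 -0.022 to 0.11, Ssr3 -0.061 to 0.079, Srp9 -0.11 to 0.055, Srpr -0.058 to 0.036, Srprb -0.16 to 0.0047, Sec11a -0.012 to 0.049, Sec11c -0.027 to 0.086, Dad1 -0.017 to 0.23, Ostc -0.059 to 0.088, Sec16a -0.0095 to 0.090, Sec23b -0.22 to 0.14, Sec24a -0.11 to 0.041, Sec24b -0.10 to 0.10, Sar1b -0.10 to 0.081, Lman1 -0.020 to 0.054, Kdelr2 -0.069 to 0.0037, Kdelr3 -0.36 to 0.016 and Tmed2 -0.0094 to 0.29, and for the log2 ratios Sec24a to Sec24b -0.22 to 0.095, Sec11c to Sec11a -0.023 to 0.059, Kdelr3 to Kdelr1 -0.25 to 0.16 and Kdelr3 to Kdelr2 -0.32 to 0.11.

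Same-numbered control and IL-1β samples had deviations from their group means that correlated by 0.0616, 0.00793 and 0.00380, and not every sample correlated best with its own number, so the numbers were not taken as pairs. With the replicate number as a block, 3 of the 48 genes were higher and 2 lower, Spcs3 (adjusted p = 0.0410) and Sec24d (0.0350) being added, and 1671 genes were called over the table. Depth limits Kdelr3 most among the 48 genes.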
